A study of Caenorhabditis elegans with 8 samples.

Results

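The transcriptome described here is that of N2, the laboratory wild-type strain of the nematode Caenorhabditis elegans, in whole young adult worms. Its genes were taken from 2 deposited tables, 1 from a paired-end and 1 from a single-end experiment, by joining the N2 column of both on the gene identifier. Genes that either table marks as failed or as too deep to estimate were dropped, which left 20523 of 20541 genes. The labels give N2 no introduced allele and no treatment. The worms were synchronised by laying eggs within a set time, and polyadenylated RNA of whole animals went into the libraries.

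The study holds 8 libraries of 2 strains, N2 and HC125. N2 supplied 4 of them, 2 in each experiment. The paired-end libraries were made with the Illumina TruSeq RNA Library Preparation Kit v2 without strand information, and the single-end libraries on the Apollo 324 system with strand information, per the labels. Kit, read layout, strand and experiment therefore change together and cannot be told apart.

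Each table gives 1 FPKM value per strain, pooled over its libraries. FPKM counts sequenced fragments scaled by transcript length and by library size, so that levels can be compared between genes. No value per library and no depth are given, so there is no spread over libraries, and no test was made. An error for the ratio of the tables was instead derived from the authors' deposited test statistics. It rests on the libraries within each experiment and does not cover differences between the experiments. Its 95% interval is called the interval here.

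A young adult C. elegans hermaphrodite has nearly finished its somatic growth, wears the adult cuticle, and devotes a large part of its body to the gonad. Its germ line makes sperm first, stores them, and then turns to oocytes, which take up yolk made in the intestine. The RNA of a whole animal is thus a mixture of soma and germ line. In such RNA, fewer cells of a type and less RNA per cell cannot be told apart.

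Transcripts were counted over a wide range. A level of 1 FPKM was reached by 12637 genes with paired ends and by 11267 with single ends, and 10 FPKM by 7753 and 6747. Above those, 1886 and 1558 genes reached 100 FPKM, and 130 and 185 reached 1000 FPKM. The single-end table thus had fewer genes at low levels and more at the very top. Over all 20523 genes the median was 3.27 FPKM with paired ends and 1.67 FPKM with single ends. A level of 0 was listed for 2582 genes with paired ends and for 2869 with single ends, of which 1971 were at 0 in both.

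A few genes held much of the RNA. The 10 highest genes made up 6.32% of the summed FPKM with paired ends and 7.13% with single ends. The 100 highest made up 26.7% and 35.7%, and the 1000 highest 59.5% and 73.2%. It took 548 genes to reach 50% of the sum in the paired-end table and 227 in the single-end table, so the single-end values were the more concentrated.

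The order of genes was broadly alike in both. Across all 20523 genes Spearman's rho between the tables was 0.953. It was 0.910 over the 10889 genes with at least 1 FPKM in both and 0.814 over the 6508 with at least 10 FPKM in both. These are descriptions across genes of 1 strain, and genes are not independent replicates. The top 100 genes of each table shared 75 members, the top 500 shared 389 and the top 1000 shared 753, but the top 10 shared only 3. Among the 13015 genes at 1 FPKM or more in either table, the median gene moved by 4.52 percentile points of rank and 499 genes moved by more than 20 points.

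The differences between the tables have to be read on a pair of scales. When both are brought to the same sum of FPKM, the median gene stands 0.65 higher on the log2 scale in the paired-end table. This goes with the larger part of the sum that the very highest genes take in the single-end table. Ratios are therefore given as the paired-end over the single-end share, on the log2(FPKM + 1) scale, relative to the median gene. A gene close to 0 in both tables then takes a value near -0.65, which says nothing about it. On the sum scale, 732 genes were at least 4-fold higher in the paired-end table, 5.62% of the 13015, and 69, or 0.53%, at least 4-fold higher in the single-end table. Relative to the median gene the split was 204 genes (1.57%) against 287 genes (2.21%). The direction of the imbalance thus depends on the scale, while ranks do not.

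The error was large compared with most of these ratios. It could be derived for 12283 genes, with a median of 0.69 on the log2 scale, which gives a median interval of 1.35 to either side. Outside their interval, 757 genes were higher with paired ends and 833 with single ends relative to the median gene, together 12.9%. Of the 441 genes that were at least 4-fold apart and had an error, 313 had an interval that did not include 0.

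**Figure D1:**
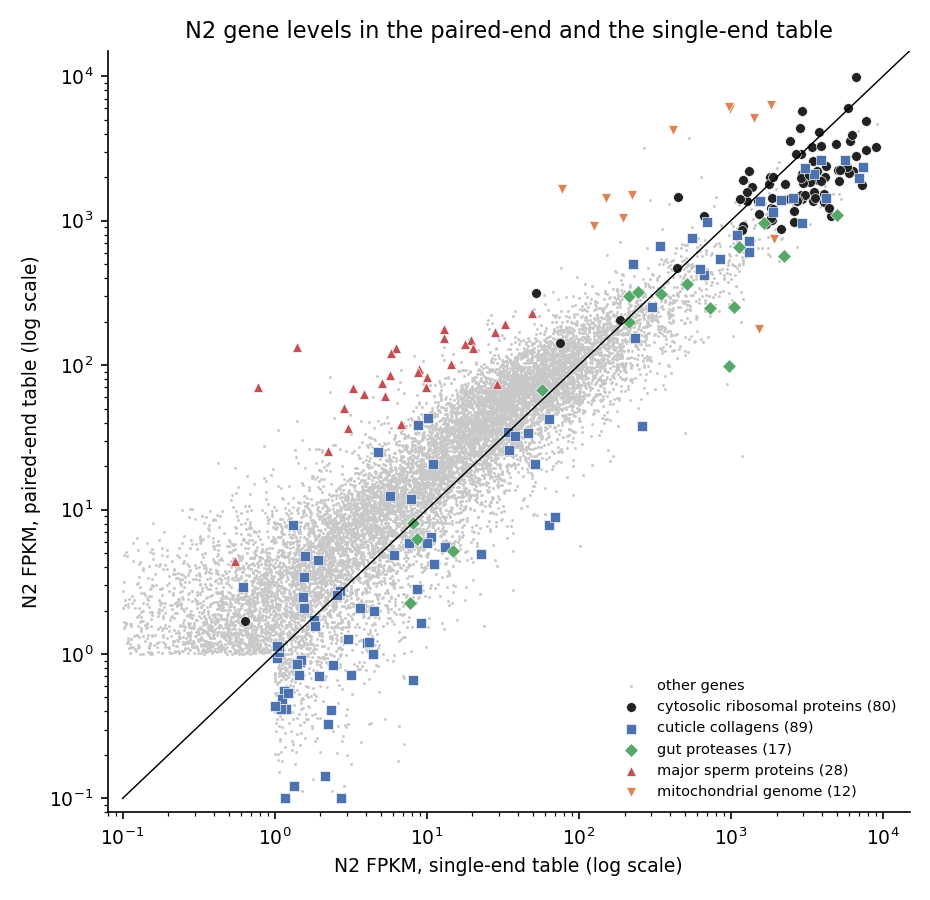
N2 FPKM in the single-end table (horizontal, log scale) against the paired-end table (vertical, log scale) for 12837 genes with at least 1 FPKM in one table and at least 0.1 FPKM in both, 1 point a gene, with 5 families in colour; the line marks equal FPKM. Major sperm protein genes and most mitochondrial genes lie above the cloud, and gut proteases and many collagens lie below it.

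Protein synthesis made up the largest block among the families defined by gene name. The 80 genes of the cytosolic ribosomal proteins, the structural proteins of the ribosome, held 17.7% of the paired-end and 24.3% of the single-end sum of FPKM. They filled 59 and 58 places among the 100 highest genes. Their median level was 1802 FPKM in the paired-end and 2914 FPKM in the single-end table.

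The leading member of the block differed between the tables. rpl-39, a short protein of the large subunit, was first in the paired-end table with 9895 FPKM and ninth in the single-end table with 6622 FPKM. rps-8, a protein of the small subunit, had 3243 FPKM in the paired-end and 9001 FPKM in the single-end table, where it was second. rps-25 was high in both, with 4884 and 7755 FPKM. Relative to the median gene, 69 of the 80 were lower in the paired-end table, with a median log2 ratio of -1.13 beside 0.06 over the 13015 genes and -1.29 over the 201 genes at 1000 FPKM or more in either table. The ribosomal genes, which are a large part of those 201, thus had ratios near those of genes of their level. Their ranks were higher in the single-end table for 42 of them and in the paired-end table for 36.

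Not every ribosomal gene was abundant. rpl-42 was listed at 1.69 FPKM in the paired-end and 0.635 FPKM in the single-end table, the lowest of the 80 in both. rpl-37 had 314 FPKM in the paired-end and 52.5 FPKM in the single-end table, the only ribosomal gene at least 4-fold higher in the paired-end table, with a log2 ratio of 2.08. The 4 that were at least 4-fold higher in the single-end table were rpl-1, rpl-18, rpl-43 and rps-0. Of these, rpl-43 had 1772 FPKM in the paired-end and 7275 FPKM in the single-end table, a log2 ratio of -2.51 with an interval from -3.59 to -1.43. These genes were named after their values were seen, except rpl-43.

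Factors that work on the ribosome were abundant too. The 28 translation factors held 1.63% of the paired-end and 2.10% of the single-end sum. eef-1A.1, the elongation factor that brings transfer RNA to the ribosome, was the highest gene of the single-end table at 9122 FPKM and the ninth of the paired-end table at 4678 FPKM. Its log2 ratio was -1.43, with an interval from -4.78 to 1.91 that included 0. eef-2, the translocation factor, had 1291 FPKM in the paired-end and 2546 FPKM in the single-end table. iff-1, a germline form of eIF5A, had 2538 and 2079 FPKM, so its FPKM was the higher in the paired-end table.

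**Figure D2:**
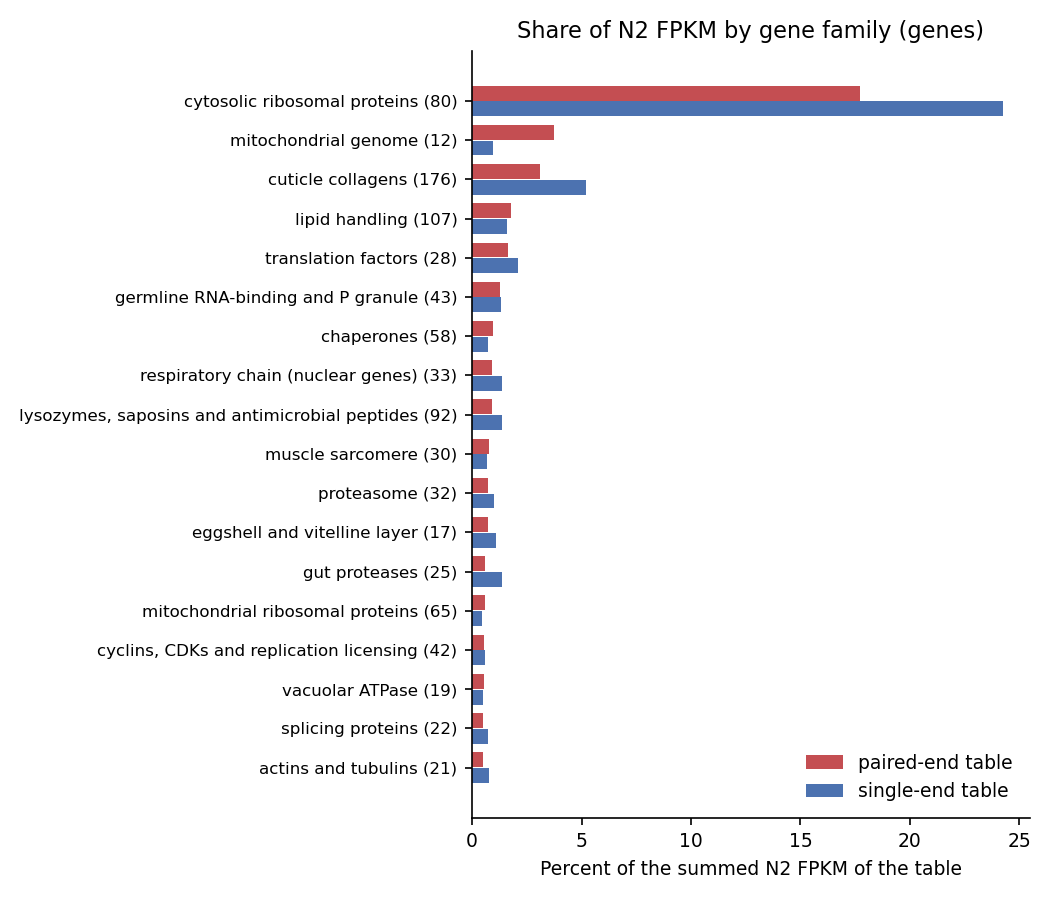
Percent of the summed N2 FPKM (horizontal) held by each of the 18 gene families with the highest share in the paired-end table, among families defined by gene name; red bars are the paired-end and blue bars the single-end table, 1 pooled value each. Ribosomal proteins held 17.7% and 24.3%, and the mitochondrial genome is the family with the widest relative gap among those above 1% in the paired-end table.

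The adult cuticle was the next large somatic block. The worm's cuticle is built from a big family of collagens, and different members are switched on at different moults. The 176 cuticle collagen genes held 3.12% of the paired-end and 5.21% of the single-end sum. The family was sharply split, since 87 of the 176 stayed below 1 FPKM in both tables while 9 and 11 were among the 100 highest genes. The other 89 reached 1 FPKM in either table, beside 13015 of all 20523 genes.

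The collagens listed here as adult markers were high, though not the only high ones. col-124, which is not among them, was the highest collagen of the paired-end table with 2641 FPKM and had 3942 FPKM in the single-end table. col-119 had 2347 FPKM in the paired-end and 7383 FPKM in the single-end table, where its rank was 5. col-122 had 1984 and 6962 FPKM, and col-140 had 2624 and 5647 FPKM. col-19, the collagen most used as a marker of the adult hypodermis, was much the same in both, with 1365 and 1561 FPKM. These 4 adult markers were all higher in FPKM in the single-end table, col-19 by the least.

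The larval collagens named here stood far below the 4 adult markers in both tables, and the tables differed in them. dpy-7, a collagen of the larval cuticle, had 1.21 FPKM in the paired-end and 4.19 FPKM in the single-end table. dpy-14 had 7.82 and 63.3 FPKM, a log2 ratio of -3.35 with an interval from -4.84 to -1.85. dpy-17 had 8.84 and 69.9 FPKM, a log2 ratio of -3.33 with an interval from -4.65 to -2.01. In the single-end table dpy-14 and dpy-17 ranked 2404 and 2217 of all genes, so they were not low there. bli-2, a collagen of the adult struts, had 0.124 and 0.262 FPKM. Of the 89 collagens at 1 FPKM or more in either table, 12 were at least 4-fold higher in the single-end table and none in the paired-end table, beside 2.21% and 1.57% of all genes. Over all 176 collagens, 135 ranked higher in the single-end table, and 53.7% of all genes did.

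Of the 12 genes listed for the moult, in which a worm replaces its cuticle, 9 ranked higher in the single-end table, beside 53.7% of all genes. The list shares bli-1, bli-2 and dpy-5 with the collagens, and without them the count was 7 of 9. noah-1, a protein of the temporary coat laid down before a new cuticle, had 5.43 FPKM in the paired-end and 14.5 FPKM in the single-end table. noah-2 of the same coat had 4.65 and 19.4 FPKM, and mlt-11, a secreted protease inhibitor needed for the moult, 0.77 and 3.98 FPKM. nhr-23, the nuclear receptor that drives moulting genes, went the other way with 49.2 and 21.9 FPKM, and so did nas-37, a protease that frees the old cuticle, with 19.2 and 5.04 FPKM.

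Genes listed as markers of the intestine were present in both tables. Of the 9 intestinal markers found, all reached 1 FPKM in both tables. elt-2, the transcription factor that maintains intestinal identity, had 11.1 FPKM in the paired-end and 8.96 FPKM in the single-end table. The structural marker act-5, the actin of the gut brush border, had 459 and 489 FPKM. mtl-2, an intestinal metallothionein, had 926 and 857 FPKM. These 3 were at similar FPKM in both tables. Another 4 intestinal markers were over 2-fold higher in FPKM with paired ends: fat-7, a fatty acid desaturase, with 225 and 98.0 FPKM, vha-6 with 171 and 83.4 FPKM, ges-1 with 24.7 and 10.8 FPKM and elt-7 with 7.91 and 2.24 FPKM. ifb-2 had 80.0 and 56.2 FPKM. The marker asp-1 was opposite and the only one at least 4-fold apart, with 1101 and 5009 FPKM. With it, the 9 summed to 3006 FPKM in the paired-end and 6615 FPKM in the single-end table. By rank, 7 of the 9 were higher in the paired-end table, beside 53.2% of genes at 1 FPKM or more in either table.

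Gut proteases stood out as a family that was larger in the single-end table. The 25 genes of the asp and cpr families, aspartyl proteases and cathepsin B-like cysteine proteases, held 0.586% of the paired-end and 1.37% of the single-end sum. asp-1 had 1101 FPKM in the paired-end and 5009 FPKM in the single-end table. asp-6 had 568 and 2246 FPKM, and cpr-5 had 253 and 1049 FPKM. cpr-4 had 98.0 FPKM in the paired-end and 970 FPKM in the single-end table, a log2 ratio of -3.77 with an interval from -4.67 to -2.86. In all, 5 of the 25 were at least 4-fold higher in the single-end table, asp-5 being the other, and none was in the paired-end table, beside 2.21% and 1.57% of all genes. asp-2, asp-13 and asp-14 had higher FPKM in the paired-end table.

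Enzymes of foreign-compound metabolism differed in the opposite direction. The 184 genes of the cytochrome P450, UDP-glucuronosyltransferase and glutathione S-transferase families held 0.34% of the paired-end and 0.179% of the single-end sum. Of the 124 at 1 FPKM or more in either table, 8 were at least 4-fold higher in the paired-end table and none in the single-end table, beside 1.57% and 2.21% of all genes. Of the 8, 4 were cyp-35 genes. cyp-35A2 had 193 FPKM in the paired-end and 25.02 FPKM in the single-end table. cyp-35C1 had 133 and 12.98 FPKM, and ugt-22 had 238 and 37.9 FPKM. ugt-22 was the highest member of the paired-end table. The highest of the single-end table, gst-1, was on the other side, with 234.5 and 387 FPKM.

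Some genes of fat metabolism and immune effectors were high as well. far-2, a secreted fatty acid and retinol-binding protein, had 2385 FPKM in the paired-end and 3573 FPKM in the single-end table. acdh-1, an acyl-CoA dehydrogenase that responds to diet, had 1992 and 638 FPKM, a log2 ratio of 1.17 with an interval from -0.17 to 2.50 that included 0. lipl-1, a lysosomal lipase that is raised in fasting, had 21.1 and 0.423 FPKM, a log2 ratio of 3.42 with an interval from 1.58 to 5.27. ilys-5, an invertebrate-type lysozyme, had 1731 and 4172 FPKM, and spp-5, a saposin-like pore-forming protein, 1564 and 1774 FPKM.

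Yolk could only be seen in part. vit-1, a yolk protein gene expressed in the adult intestine, was the only 1 of 6 that both tables estimated, at 1859 FPKM in the paired-end and 1286 FPKM in the single-end table. Its log2 ratio of 0.06 had an interval from -3.58 to 3.70. vit-3, vit-4 and vit-5 were marked as too deep in both tables and vit-2 and vit-6 in the paired-end table, so the share of yolk RNA in these worms is not given by the sums here. The vit genes are near-identical in places, so that reads may be divided among them in an uncertain way.

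Oocyte genes were among the highest genes outside the ribosome. Of the 12 oocyte markers found, mei-1, a subunit of the meiotic spindle's katanin, was the lowest with 91.1 FPKM in the paired-end and 148 FPKM in the single-end table. cpg-2, a chitin-binding proteoglycan of the eggshell, had 1382 FPKM in the paired-end and 2241 FPKM in the single-end table. perm-2, listed here with the genes of the eggshell and vitelline layer, had 660 and 2710 FPKM. Its log2 ratio was -2.51 with an interval from -3.48 to -1.53. puf-5, an RNA-binding repressor of oocytes, had 498 and 1123 FPKM. oma-1 and oma-2, zinc-finger proteins of the maturing oocyte, differed less, with 241 and 261 FPKM for oma-1 and 414 and 545 FPKM for oma-2. Other oocyte genes had more FPKM in the paired-end table, with 622 and 506 FPKM for cbd-1, 522 and 404 FPKM for egg-1 and 225 and 167 FPKM for egg-2. By rank, 5 of the 12 were higher with paired ends and 7 with single ends. Of all genes at 1 FPKM or more in either table, 53.2% and 46.8% were. The summed level of the 12 was 6233 FPKM in the paired-end and 11474 FPKM in the single-end table, with a median log2 ratio of -1.17. Their median levels were 510 and 568 FPKM. All genes with a geometric mean of 300 to 1000 FPKM had a median log2 ratio of -0.96, so the list stood near genes of its level.

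Genes of the wider germ line had similar medians in both tables. All 14 germline markers passed 1 FPKM in both tables, with medians of 137 FPKM in the paired-end and 118 FPKM in the single-end table. gld-1, the translational repressor of the early meiotic germ line, had 648 and 435 FPKM. pgl-1, a P granule protein, had 263 and 183 FPKM, and glh-1, a germline helicase, 219 and 265 FPKM. glh-2, a related helicase, had 75.8 and 25.8 FPKM, a log2 ratio of 1.05 with an interval from 0.19 to 1.90. syp-1, of the synaptonemal complex, had 37.8 and 17.2 FPKM, and fbf-1 and fbf-2, repressors in germline stem cells, were low with 17.4 and 9.87 FPKM for fbf-1 and 17.1 and 14.05 FPKM for fbf-2. The median log2 ratio of the list was -0.10 relative to the median gene and would be above 0 on the sum scale, so no direction is given. The 43 RNA-binding and P granule genes held 1.27% and 1.3% of the sums, led by cey-2, a Y-box protein, with 1464 and 2075 FPKM.

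Sperm genes showed the widest gap of all families. The major sperm proteins drive the crawling of nematode sperm and signal to oocytes, and they come from many near-identical genes. The 31 major sperm protein genes held 0.301% of the paired-end and 0.0311% of the single-end sum, a ratio of 9.69. The highest was msp-36, with 228 FPKM in the paired-end and 49.6 FPKM in the single-end table, followed by msp-152 with 192 and 32.7 FPKM. At the extreme, msp-19 had 134 FPKM in the paired-end and 1.40 FPKM in the single-end table, a log2 ratio of 5.30 with an interval from 3.10 to 7.51. That was the highest ratio among genes at 10 FPKM or more in one table and above 0 in the other.

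Nearly every member stood higher in the paired-end table. Of the 31 genes, 30 ranked higher in the paired-end table, beside 46.3% of all genes, and 29 reached 1 FPKM in either table. Of these 29, 24 were at least 4-fold higher in the paired-end table and none in the single-end table, beside 1.57% and 2.21% of all genes. The other 5 were msp-31, msp-36, msp-58, msp-63 and msp-78, of which msp-31 had 74.3 and 29.1 FPKM. The assignment of reads among near-identical copies is uncertain in both tables, and its part in the gap was not tested.

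Sperm genes outside the msp and ssp families ranked higher in the paired-end table as well, with ratios closer to 0. spe-11, a sperm protein that the embryo needs after fertilisation, had 19.5 FPKM in the paired-end and 0.552 FPKM in the single-end table, a log2 ratio of 3.19 with an interval from 1.25 to 5.14. spe-26, needed for the meiotic divisions that form sperm, had 6.15 and 0.501 FPKM, with an interval of the log2 ratio from -4.34 to 7.77. gsp-3, a sperm phosphatase, had 24.5 and 4.72 FPKM. spe-44, a transcription factor of the sperm program, differed less, with 20.6 and 12.4 FPKM. spe-9, fer-1 and spe-38 were below 1 FPKM in both tables. All 17 sperm markers ranked higher in the paired-end table, beside 46.3% of all genes, and their summed level was 385 FPKM there and 56.3 FPKM in the single-end table. The 5 msp and ssp genes among them gave 275 and 25.4 FPKM of these sums and 4 of the 5 ratios of at least 4-fold. The other 12 gave 109 and 30.9 FPKM, with a median log2 ratio of 0.58.

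Small sperm-enriched families followed. The 28 genes of the ssp, ssq, sss and nspd families held 0.151% of the paired-end and 0.0265% of the single-end sum. Of them, 25 ranked higher in the paired-end table, beside 46.3% of all genes. nspd-1 had 196 and 26.96 FPKM, and sss-1 had 83.5 and 4.71 FPKM. ssp-11 was opposite, with 2.87 FPKM in the paired-end and 11.4 FPKM in the single-end table.

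**Figure D3:**
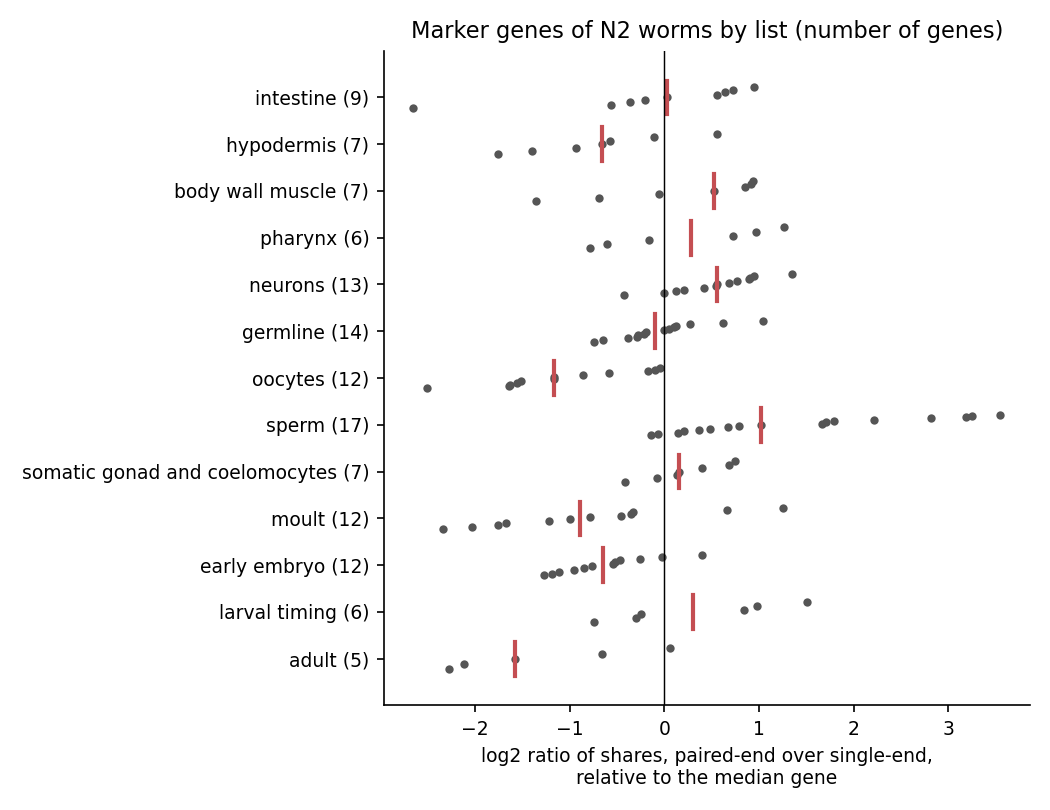
Log2 ratio of shares, paired-end over single-end and relative to the median gene (horizontal), for the marker genes of 13 lists, 1 grey point a gene with red bars at the list medians; the number of genes found stands beside each list. Sperm genes reach 3.55 and have a median of 1.02. Oocyte genes have a median of -1.17, beside -0.96 for all genes at 300 to 1000 FPKM. Genes near 0 FPKM in both tables gather near -0.65.

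Muscle and neuron genes were present at moderate levels. unc-54, the main body wall myosin, had 168 FPKM in the paired-end and 125 FPKM in the single-end table, and the thin-filament protein lev-11, a tropomyosin, had 589 and 686 FPKM. pat-10, a body wall troponin C, was the highest sarcomere gene with 1947 and 1846 FPKM. myo-2, the pharynx myosin, had 9.12 and 3.34 FPKM. The 13 neuronal markers had medians of 21.3 and 8.99 FPKM, and the body wall muscle list had 16.1 and 7.48 FPKM. By sum the order was opposite, with 400 and 209 FPKM for the neuronal and 1013 and 913 FPKM for the muscle list. snt-1, synaptotagmin, had 7.71 and 1.39 FPKM, and snb-1, synaptobrevin, had 170 and 83.1 FPKM. Of the 13 neuronal markers, 10 ranked higher in the paired-end table, beside 53.2% of genes at 1 FPKM or more in either table. Chemoreceptors, the largest named family with 1345 genes, reached 1 FPKM in either table for 23 genes. The highest names in it include odr-8 and odr-4, proteins that help receptors reach the cilia and are not receptors themselves, with 89.4 and 70.0 FPKM for odr-8.

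The stage label was checked against its markers. The adult collagens and vit-1 ranked 138 or higher in both tables. Most early embryonic genes were low, with 3 of 12 at 1 FPKM or more with paired ends and 5 of 12 with single ends. Of all 20523 genes, 12637 and 11267 reached that level. By rank, 10 of the 12 early embryonic genes were higher in the single-end table, beside 53.7% of all genes. The lowest included med-1, med-2, end-1, end-3 and tbx-35, regulators of the first gut and mesoderm cells, all at 1.21 FPKM or less. The highest was skn-1, a regulator that is also supplied by the mother, with 123 and 67.0 FPKM. elt-1, a regulator of epidermal fate, had 6.39 and 5.27 FPKM, pes-1 had 3.13 and 1.92 FPKM, and ceh-51 had 0.939 and 2.21 FPKM. lin-28, a larval timing regulator, had 103 FPKM in the paired-end and 37.2 FPKM in the single-end table, and lin-14, another, had 11.7 and 2.14 FPKM. The adult markers that both tables estimated were thus high in both. Not all genes of earlier stages were low, since lin-28 had the levels just given. The larval collagens dpy-14 and dpy-17 had 63.3 and 69.9 FPKM in the single-end table. Most moult genes ranked higher in the single-end table and the sperm genes in the paired-end table, as given above. Whether the worms of the experiments differed in exact age was not tested.

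The genes of the mitochondrial genome differed widely between the tables. C. elegans mitochondrial DNA encodes 12 proteins of the respiratory chain and ATP synthase, all on 1 strand, and their messages are cut from long transcripts and polyadenylated. These 12 genes held 3.76% of the paired-end and 0.935% of the single-end sum. Among the 100 highest genes there were 8 of them with paired ends and 2 with single ends. Names here are matched by position to the RefSeq symbols, and positions are those of the WBcel235 annotation.

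Most of the 12 were several-fold higher in the paired-end table. MTCE.26, the cytochrome oxidase subunit gene COX1 at 7827 to 9428 of the mitochondrial DNA, had 6285 FPKM in the paired-end and 1849 FPKM in the single-end table. MTCE.23, COX3 at 5678 to 6449, had 6138 and 966 FPKM. ctb-1, cytochrome b (CYTB) at 4504 to 5621, had 4214 and 418 FPKM, a log2 ratio of 2.86 with an interval from 1.69 to 4.03. The ranks were far apart, since ctb-1 was number 11 of all genes in the paired-end and number 395 in the single-end table.

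The widest gap belonged to a subunit of complex I, MTCE.25. This gene, ND4 at 6506 to 7808, had 1651 FPKM in the paired-end and 77.8 FPKM in the single-end table, a log2 ratio of 3.92 with an interval from 2.98 to 4.86. MTCE.35, ND5 at 11691 to 13272, had 1428 and 151 FPKM, a log2 ratio of 2.76 with an interval from 1.68 to 3.84. These were the only genes within the top 100 of one table and outside the top 1000 of the other. MTCE.16, ND2, had 916 and 125 FPKM, and MTCE.11, ND1, had 1509 and 223 FPKM.

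The remaining pair was opposite. MTCE.4, ND4L, had 178 FPKM in the paired-end and 1541 FPKM in the single-end table, but the interval of its log2 ratio of -3.58, from -7.98 to 0.83, included 0. MTCE.34, ND3, had 752 and 1932 FPKM, a log2 ratio of -1.83 with an interval from -5.85 to 2.19. They are the shortest genes of the 12. The tables list each at a locus shared with its neighbour, MTCE.3 and MTCE.35, so the division of reads between neighbours is uncertain. Relative to the median gene, 10 of the 12 were higher in the paired-end table, 7 of them at least 4-fold, beside 1.57% of all genes.

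**Figure D4:**
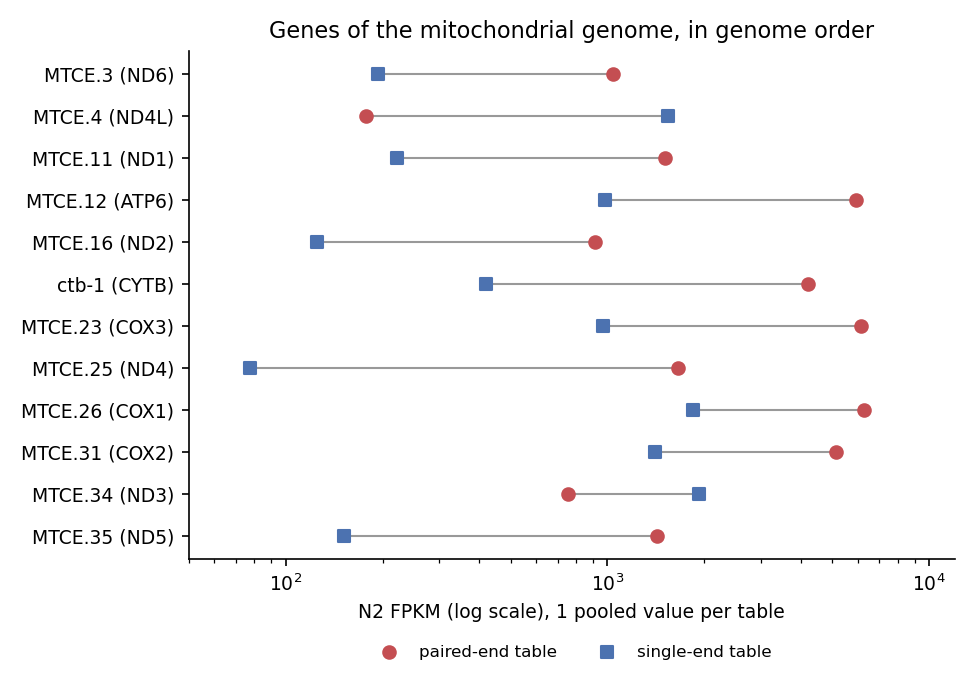
N2 FPKM on a log scale (horizontal) of the 12 protein genes of the mitochondrial genome in genome order, with the RefSeq symbol after the gene name; red circles are the paired-end and blue squares the single-end table, joined by a line. Circles lie to the right of squares for 10 genes and to the left for MTCE.4 and MTCE.34.

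Nuclear genes of the respiratory chain did not share this. Their 33 members held 0.925% of the paired-end and 1.36% of the single-end sum. Of these, 24 ranked higher in the single-end table, beside 46.8% of genes at 1 FPKM or more in either table. atp-2, the catalytic beta subunit of ATP synthase, had 1134 FPKM in the paired-end and 1758 FPKM in the single-end table. cyc-2.1, a cytochrome c, had 762 and 2155 FPKM.

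Most histone genes were low. Their median was 0.434 FPKM in the paired-end and 0.804 FPKM in the single-end table, beside 3.27 and 1.67 FPKM over all genes. Of the 81 histone genes, 41 reached 1 FPKM in either table and 40 did not, while 13015 of all 20523 genes reached it. Replication-dependent histone messages lack a poly(A) tail, and its part in these levels was not tested. Replacement histones were among the highest: htz-1, the H2A.Z variant, with 375 FPKM in the paired-end and 751 FPKM in the single-end table, and his-72, an H3.3 gene, with 220 and 728 FPKM. hil-3, a linker histone, had 12.6 and 91.3 FPKM, a log2 ratio of -3.24 with an interval from -4.54 to -1.93. pcn-1, the sliding clamp of DNA replication, had 319 and 1158 FPKM. Of the 41 histones at 1 FPKM or more in either table, 10 were at least 4-fold higher in the single-end table and none in the paired-end table, beside 2.21% and 1.57% of all genes.

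Some of the widest differences belonged to genes of no family here. nola-3, a small protein of box H/ACA ribonucleoproteins, had 23.3 FPKM in the paired-end and 1188 FPKM in the single-end table. Its log2 ratio of -6.08 was the lowest among genes at 10 FPKM or more in one table and above 0 in the other, yet its interval ran from -20.16 to 7.99. atg-3, an enzyme of autophagosome formation, had 33.7 and 499 FPKM, a log2 ratio of -4.32 with an interval from -5.47 to -3.17. dao-2 had 5.56 and 102 FPKM, and ins-28, an insulin-like peptide gene, had 2.76 and 36.9 FPKM. In the other direction asm-3, an acid sphingomyelinase, had 41.1 and 1.41 FPKM.

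Genes listed in the tables under a sequence name only carried a large part of the RNA. These 11000 genes held 29.8% of the paired-end and 25.5% of the single-end sum. Some have since been given gene names, and by current symbols the shares were 20.2% and 17.2%. By mean share over the tables Y37E3.8 came first, with 3452 and 6410 FPKM, and Y82E9BR.3 next, with 1414 and 5331 FPKM. In the paired-end table alone F23A7.8 stood above both. F23A7.8 had 3711 FPKM in the paired-end and 534 FPKM in the single-end table, a log2 ratio of 2.32 with an interval from 1.29 to 3.36. Its neighbour F23A7.4 had 3160 and 267 FPKM, a log2 ratio of 3.09 with an interval from 1.04 to 5.14. Both are short genes that lie next to each other on chromosome X, listed from 16213373 to 16213599 and from 16212606 to 16213072.

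Few genes listed at 0 in one table stood well above 0 in the other. Of the genes above 0 in one table alone, 898 were in the paired-end table and 611 were in the other, and only 39 and 38 of them reached 1 FPKM. The highest of these was T13A10.64, a gene of 99 exon bases, at 67.7 FPKM in the paired-end table and listed at 0 in the single-end table. tin-9.2, a mitochondrial import chaperone gene, was listed at 35.4 FPKM and at 0. On the other side T19C4.24, of 102 exon bases, was listed at 0 in the paired-end table and at 30.8 FPKM in the single-end table. In HC125, T13A10.64 was listed at 0 in both tables, while tin-9.2 and T19C4.24 were at 0 in the same table as in N2 only. No fold is given for genes listed at 0.

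Length and level both went with the ratio. By exon length, the median log2 ratio relative to the median gene was -0.25 for the 209 genes of up to 300 bases. It was -0.46 for the 878 genes of 300 to 500 bases, -0.31 for 500 to 1000, 0.11 for 1000 to 2000 and 0.31 for the 681 genes above 4000 bases. By level, it was 0.10 for the 5519 genes with a geometric mean of 10 to 100 FPKM, -0.45 for 100 to 300, -0.96 for 300 to 1000 and -1.21 for the 149 above 1000 FPKM. On the sum scale each median is higher by 0.65, so that only the classes above 300 FPKM stay below 0. The relation to level was seen at a fixed length too: among genes of 1000 to 2000 bases the median ran from 0.23 at 1 to 10 FPKM to -1.43 above 1000 FPKM. The part of length and level in the family differences was not tested.

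**Figure D5:**
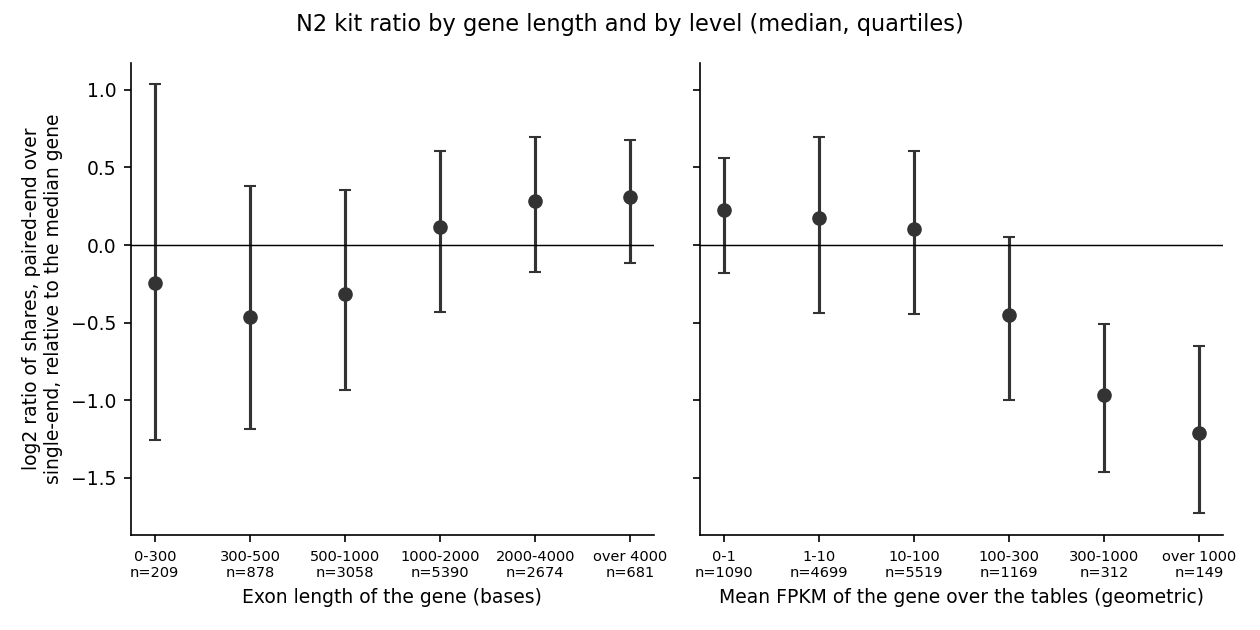
Median (points) and quartiles (bars) of the log2 ratio of shares, paired-end over single-end and relative to the median gene (vertical), for N2 genes by exon length in bases (left) and by the geometric mean FPKM of the tables (right), with the number of genes in each class. Medians run from -0.46 to 0.31 by length and from 0.22 to -1.21 by level.

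Genes that overlap another on the opposite strand had median ratios close to the rest. Only the single-end libraries record strand, so paired-end reads of overlapping genes can be assigned to either. The median log2 ratio was 0.05 for the 9623 genes with no antisense exon overlap and -0.12 for the 114 with more than 25% of exon bases overlapped. Ratios of at least 4-fold were more frequent among the 114, with 5 genes (4.39%) higher with paired ends and 6 (5.26%) with single ends. Without overlap these shares were 1.78% and 2.29%, and with an overlap above 5 and up to 25% they were 0.951% and 2.76%. Single genes differed more. R01B10.3, with 100% of its exon bases antisense to a gene at 599 FPKM in the single-end table, had 42.2 FPKM in the paired-end and 13.8 FPKM in the single-end table. B0280.17, also at 100%, had 16.3 and 1.84 FPKM. The intervals of both log2 ratios included 0, from -4.45 to 6.58 for R01B10.3 and from -2.62 to 6.83 for B0280.17. prx-2 at 41.5% had 3.49 and 2.13 FPKM, and T25F10.1 at 81.1% was on the other side with 1.53 and 2.84 FPKM. Their intervals included 0 too. Values of such genes in the paired-end table are uncertain.

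The RNA was unevenly spread over the chromosomes, in the same way in both tables. Chromosomes I and III held 20.9% and 19.1% of the paired-end sum and 22.2% and 20.2% of the single-end sum, with 14.2% and 13.1% of the genes. The X chromosome, which is known to be repressed in the germ line, held 13.8% of the genes but 7.29% of the paired-end and 6.24% of the single-end sum. Only 3.68% of X genes reached 100 FPKM in the paired-end table, beside 14.4% on chromosome III. Chromosome V, home of many chemoreceptor genes, had the lowest share of genes at 1 FPKM or more, 44.5% and 39.0%. Within each autosome the middle of 3 equal parts had a higher median level than the left, as on chromosome I with 31.4 against 16.8 FPKM in the paired-end table. Pseudogenes were mostly silent: 114 of 582 reached 1 FPKM with paired ends and 94 with single ends.

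The difference between the tables mostly had the same direction in the other strain of the study, while its size varied. In the HC125 values of the same tables, 28 of the 29 major sperm protein genes at 1 FPKM or more, 79 of 80 ribosomal and all 12 mitochondrial genes stood on the same side as in N2, beside 90.8% of the 13015 genes. Gut proteases did so for 16 of 17 genes, and cuticle collagens for 70 of 89, or 78.7%, less than all genes. HC125 libraries belong to the same experiments as those of N2, so this does not separate the kit from the experiment. Among the 204 genes at least 4-fold higher in the paired-end table relative to the median gene, 97 were so in HC125 too, and among the 287 in the other direction 177 were. The median log2 ratio of the major sperm proteins was 2.73 in N2 and 1.93 in HC125. It was 1.83 and 1.06 for the small sperm families, 2.16 and 2.18 for the mitochondrial genome and -1.13 and -0.98 for the ribosomal proteins.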

How the data were processed

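Whole young adult worms were measured by RNA-seq of polyadenylated RNA. Per the file headers, the 2 tables have the layout of Cuffdiff output. Their FPKM values were computed by the authors, 1 per strain and experiment, pooled over 2 libraries. TopHat2 2.0.1 and Cufflinks 2.2.1 are given, without settings, in the submitters' processing notes. The genome build is not given in the sources used here. Depth per library is unknown, and the sources used here do not say how far the intervals include counting error. The deposited test statistic, a score per gene for HC125 against N2, served only to derive an error: the absolute log2 ratio of the strains divided by the absolute score, combined over tables as the root of the sum of squares, times 1.96. It is conservative for a ratio within N2 if the values of the strains are independent, and assumes a normal distribution. The error was taken on FPKM without a pseudocount, whereas the printed ratios carry one. For genes at low levels in a table the interval is therefore only approximate.

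Shares are FPKM over the sum of the 20523 joined genes. Ratios used a pseudocount of 1 and, for counts, a level of at least 1 FPKM in either table and 4-fold. Their centre is the median over 10889 genes at 1 FPKM or more in both tables. Families follow gene names in the tables. Exon lengths and overlaps come from the WBcel235 annotation, which holds 20176 of the joined genes. Starts in the tables count from 0, since adding 1 matched that annotation for 5269 of 16551 genes listed at a locus of their own and not adding it for 366, and starts printed here are raised by 1. Members, families and marker lists were chosen with earlier results of these data known. Genes named are the 25 with the highest mean share, the 3 highest of each family, the markers, the 15 widest ratios each way, the 5 highest listed at 0 each way and those in one top 100 but outside the other top 1000. Any other gene was picked with its values in view. GC content was not computed. The counting was tested on simulated data. Python 3.11.15, numpy 2.4.6, pandas 2.3.3 and scipy 1.17.1 were used.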

Additional observations from a re-analysis of the deposited data

Results flagged for a closer look

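Several genes that were left out because of their status in a table carry high FPKM values. rack-1, a ribosome-bound scaffold protein, was listed at 1181 FPKM in the paired-end table and at 3763 FPKM in the single-end table, where its estimate is marked as failed. rps-3, a ribosomal protein of the small subunit, was listed at 1890 and 3716 FPKM and is marked as failed in both. The yolk gene vit-2 had 3099 FPKM and vit-6 had 3501 FPKM in the single-end table, and both are listed at 0 and marked as too deep in the paired-end table. T21H3.1 was listed at 885 FPKM in the single-end table, marked as failed there, and at 216 FPKM in the paired-end table. These values are outside every share and rank given above, and the zeros of genes marked as too deep are no estimate of a level.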

How the results depend on the processing

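The number of genes at least 4-fold apart on the sum scale, 732 with paired ends higher and 69 with single ends higher, moved with several settings, and the side with more genes changed with the scale. Centred on the median gene it was 204 and 287. With a pseudocount of 0.1 it was 1761 and 171, and with a 2-fold threshold 4583 and 580. Without genes under 500 bases the single-end number was 43. Combinations with the median scale, added after the data were seen, gave 170 and 209 at 10 FPKM or more, 120 and 250 in HC125, 171 and 220 without antisense overlap, 135 and 200 without genes under 500 bases, and 780 and 500 with a pseudocount of 0.1, where the paired-end side was again the larger. The share of ribosomal proteins dropped to 8.11% and 11.1% without the 50 highest genes of each table, and to 10.1% in the paired-end table without genes under 500 bases. Without the 50 highest genes of each table the mitochondrial genome held 0.977% with paired ends and 1.23% with single ends. That step took MTCE.12, MTCE.23, MTCE.26, MTCE.31 and ctb-1 out of the paired-end sum and no mitochondrial gene out of the single-end sum. These shares thus cover different genes, and their order says nothing about the difference between the tables. Among the log2 ratios recomputed for the 25 highest genes and the 15 widest ratios each way, 3 changed sign, all of genes less than 4-fold apart: rpl-38 and rps-24, at -0.43 and -0.37 on the median scale, and rps-17, at 0.15 on the sum scale in HC125. Rank correlations and the shared top lists moved little. Leaving out a library was not possible, since values are pooled. No paired analysis was possible because the tables give no value per library and no result comes from a test. GC content was not examined, for want of a genome sequence.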
